A study of Mus musculus with 14 samples.

Results

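Laparotomy, an opening of the abdominal wall, was studied here in mice that lack PAD4 by comparing cancer cells sorted from the lung tumours of operated and unoperated animals. The comparison held 4 of the 14 libraries of the study, which were all libraries labelled as PAD4 knockout (KO) hosts: 2 of unoperated KO hosts (KO control) and 2 of KO hosts given laparotomy on days 0 and 10 (KO laparotomy). In all 4, the sequenced cells were MC-38, a mouse colon cancer line, carrying green fluorescent protein (GFP) and isolated from lung tumours by flow sorting on day 30. The genotype tag reads WT in all of them, and the host's loss of PAD4 is given in the titles and the treatment tag, so the knockout belongs to the host and not to the cancer cells. The labels give neither the age, sex and strain of the hosts nor how the deletion was made. The 4 tumour libraries of wild-type (WT) hosts, 2 unoperated (WT control) and 2 with the same 2 operations (WT laparotomy), served to estimate the spread and as a second comparison. The 6 libraries of MC-38 cells in culture, 3 untreated and 3 given chromatin of neutrophil extracellular traps, stood outside the fit. Every gene with enough counts was used, which was 14615 of the 24411 genes in the tables.

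Neutrophil extracellular traps are webs of chromatin and granule proteins that neutrophils release, and PAD4, the enzyme encoded by Padi4, citrullinates histones in that release. Hosts without PAD4 form few such traps, and the comparison asks which genes of the cancer cells differ with surgery in such hosts. Tumour cells also receive and send wound-repair signals, among them epidermal growth factor (EGF) family ligands, which bind receptors of the ErbB family, and prostaglandins, which cyclooxygenases make from arachidonic acid.

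The KO control libraries held 27022963 and 26200475 gene counts and the KO laparotomy libraries 15049403 and 15323336, so the operated group was sequenced less deeply. The WT libraries held 10844282 to 31255721. The labels do not state that the 2 libraries of a group are separate animals or tumours, so each p-value measures only how far these samples spread, and that spread may be technical. Padi4 stood at 5.47 and 2.08 CPM (counts scaled to an equal library total, with trimmed mean of M values factors) in KO controls and 3.97 and 2.83 CPM after laparotomy. MC-38 cells in untreated culture held 67.2 ± 4.31 CPM of it (SD, n = 3), so its level in sorted cancer cells does not check the host's genotype. Epcam and Krt19, genes of colon epithelium, were low in the 4 KO libraries, with a highest value of 1.96 CPM, and in untreated culture, with means of 0.123 and 0.0515 CPM.

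RNA of other cells was present in the sorted samples and differed between libraries. The 10 pan-leukocyte markers summed to 275 and 258 CPM in KO controls and 166 and 144 CPM after laparotomy, against 2.97 to 3.69 CPM in untreated culture. Arhgdib alone held 186 and 118 CPM and then 58.4 and 63.1 CPM of these sums. The other 9 summed to 88.9 and 140 CPM and then 108 and 81.2 CPM, so those groups overlapped. The 16 monocyte and macrophage markers summed to 145 and 351 CPM in KO controls and 537 and 349 CPM after laparotomy. Untreated culture held 93.1 to 111 CPM of these 16, with Cd68 alone at 78.3 to 98.0 CPM. The 13 neutrophil markers summed to 429 and 373 CPM and then 262 and 167 CPM, against 74.1 to 81.6 CPM in untreated culture. Padi4, which MC-38 cells express, was at 64.5 to 72.1 CPM in culture, so that range is no neutrophil baseline. Mmp9, a matrix protease, held 407 and 252 CPM and then 215 and 124 CPM of the KO sums. The other 12, Padi4 among them, summed to 22 and 121 CPM in KO controls and 47.1 and 43.1 CPM after laparotomy. KO control 1 was the lowest. KO control 2 stood apart with 440 CPM over the 13 lung epithelium markers, where KO control 1 held 44.9 CPM and the operated libraries 103 and 94.5 CPM. The same library was highest among the 4 for the 12 endothelial markers, at 464 CPM against 166, 219 and 194 CPM. In untreated culture, the lung epithelium markers summed to 14.7 to 17.9 CPM and the endothelial markers to 38.4 to 41.6 CPM. The 11 fibroblast and mural markers summed to 1576 and 1029 CPM in KO controls and to 1407 and 3106 CPM after laparotomy. Their sum in untreated culture was 105 to 109 CPM. Dcn, which encodes the matrix proteoglycan decorin, was at 402 and 236 CPM in controls and 573 and 1542 CPM after laparotomy. Markers of T cells, natural killer cells and B cells summed to at most 29.2 CPM in any KO library. Xist, a transcript of the X chromosome, was at 28.1 and 17.0 CPM in KO controls and 9.68 and 2.63 CPM after laparotomy. Ddx3y, a Y chromosome gene, was at 1.86 and 6.30 CPM and then 4.97 and 4.25 CPM. Untreated culture held 0.381 to 0.628 CPM of Xist and 0 CPM of Ddx3y. The sex of the hosts was not tested. The haemoglobin genes Hba-a1, Hbb-bs and Hbb-bt were at 0 in all 8 tumour libraries and in untreated culture. Whether they can be counted in these data was not tested, so the zeros do not show that red cells were absent. No member of any marker list passed in edgeR, while DESeq2 called 4 higher and 3 lower of the 128 it tested. Over all 14796 genes it tested, DESeq2 called 436 higher and 337 lower, a like share. In DESeq2, Dcn and Pdgfra were higher and Pdgfrb and Cspg4 lower among the fibroblast and mural markers. In such bulk samples, fewer cells of a type and less RNA per cell cannot be told apart, and the part of other cells in the results that follow was not tested.

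**Figure D1:**
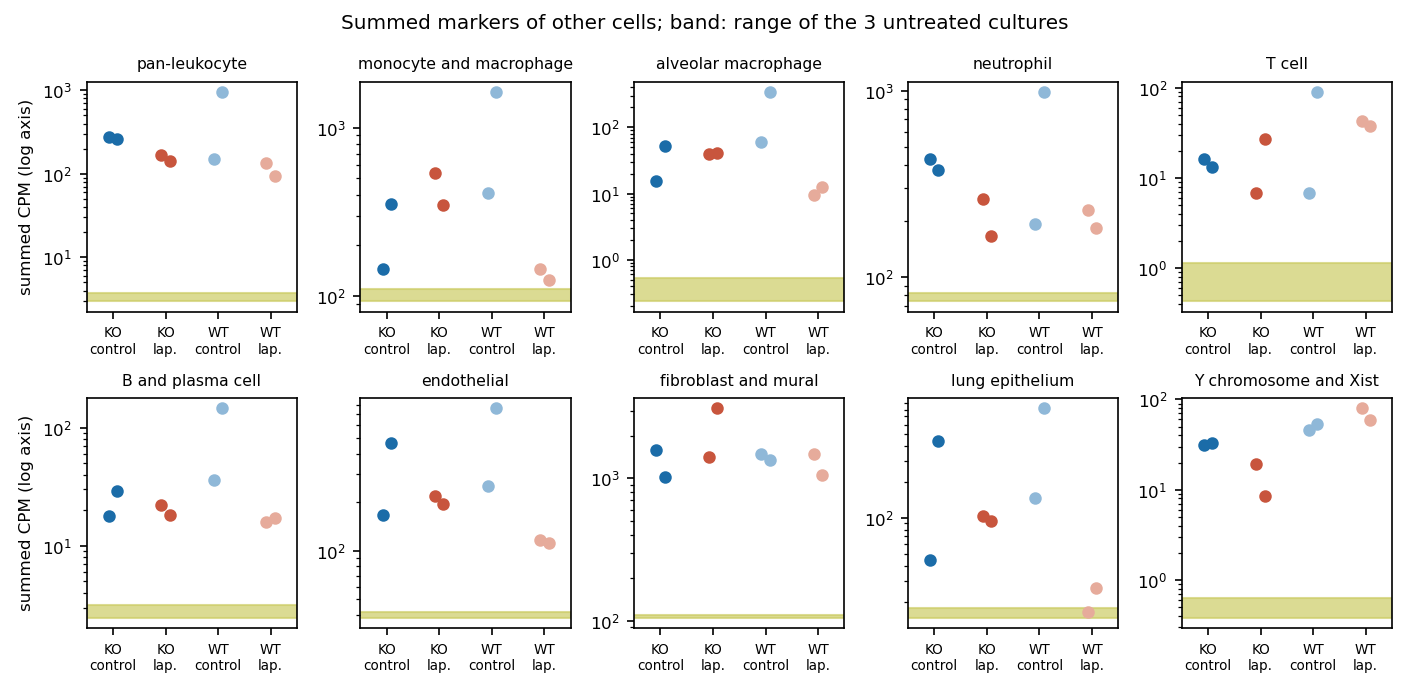
Summed CPM (log axis) of the marker genes of each cell type in the 8 tumour libraries, one point per library, coloured by group. KO control 2 lies above the other KO libraries for lung epithelium and endothelium, and WT control 2 is the highest library in the 5 leukocyte panels of the top row. Bands are the range of the 3 untreated cultures.

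Laparotomy in KO hosts was followed by higher expression of 50 genes, 0.342% of the 14615 tested, and lower expression of 26, or 0.178%. Both directions together made 76 genes, 0.52% of those tested, at a Benjamini-Hochberg adjusted p below 0.05 in edgeR's quasi-likelihood test. The fold change was 2 or more in 68 of the 76. Over all tested genes the median log2 fold change was -0.01, and the fold change was 2 or more, in either direction, for 2098 (14.4%). At an unadjusted p below 0.05 there were 1204 higher genes (8.24%) and 1089 lower ones (7.45%). Across all tested genes, the median absolute log2 difference was 0.278 between the 2 KO controls, 0.278 between the 2 operated libraries, and 0.292 to 0.348 between a control and an operated library. The number of calls rested on single libraries. Without KO control 1, edgeR called 0 genes, with 2014 at an unadjusted p below 0.05, and without KO laparotomy 2 it called 1 higher and 0 lower, with 2024. The 1 gene was Nfatc4, so every other call described here was lost without either of these libraries, and 19 genes that rose and 3 that fell passed in none of the 4 fits that left out a KO library. Without KO control 2 there were 69 higher and 69 lower genes, and without KO laparotomy 1 there were 38 and 14. The counts also moved when a WT library was left out, which changes the shared spread, the scaling and the genes tested: 97 higher and 98 lower without WT control 1, 106 and 96 without WT control 2, 14 and 3 without WT laparotomy 1, and 9 and 2 without WT laparotomy 2. DESeq2 called 436 higher and 337 lower genes of the 14796 it tested, which included all 76. Its counts in lists are to be read beside these totals, and 1 such call in a list is no result about that list. All 76 kept their direction under each of these settings. In what follows, rose, fell and passed refer to edgeR's test with all 8 libraries, and DESeq2's counts are given beside lists where they differ.

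**Figure D2:**
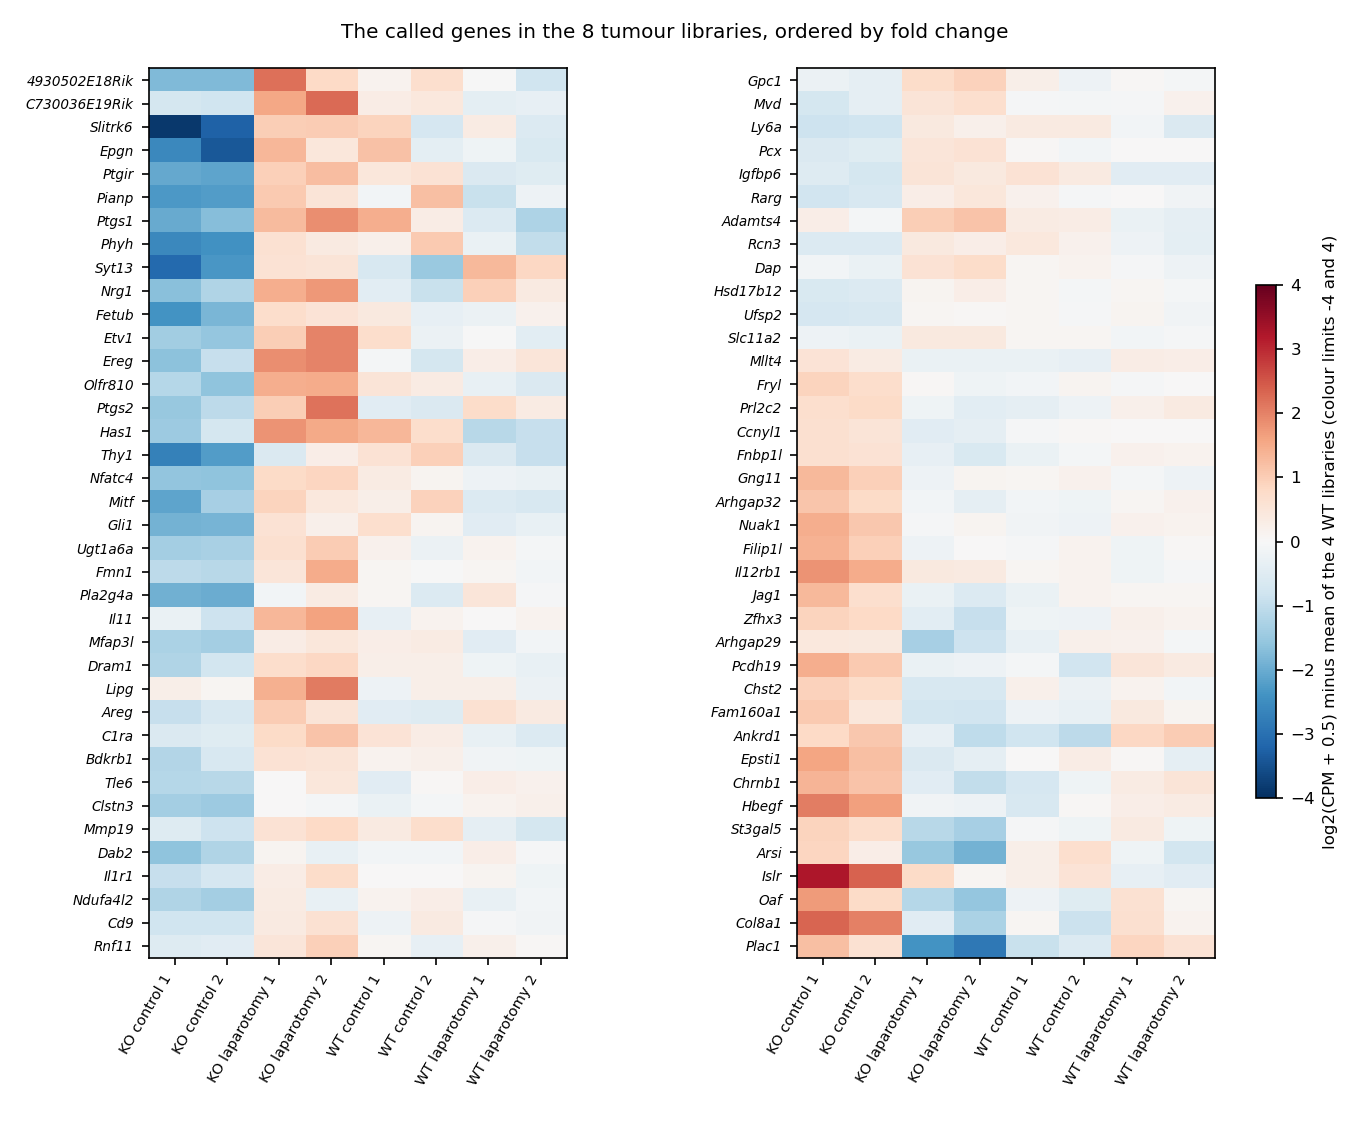
Each row is 1 of the 76 called genes and each column 1 tumour library. Colour is log2(CPM + 0.5) minus the mean of the 4 WT libraries for that gene, from -4 (blue) to 4 (red). In most rows the 2 KO control libraries carry the strongest colour, on the opposite side from the KO laparotomy libraries.

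Several ligands of the EGF family differed. Of the 11 ligand genes, a list added after the data were seen, 8 were tested, 4 rose and 1 fell, with a median log2 fold change of 1.16. Of all tested genes, 0.342% rose and 0.178% fell. Ereg, which encodes epiregulin, stood at 30.8 and 51.9 CPM in KO controls and at 355 and 392 CPM after laparotomy. The operated libraries were both above every other tumour library, and the log2 fold change was 3.18 ± 0.30 (SE, adjusted p = 0.0198). Epgn, which encodes epigen, rose from 1.10 and 0.415 CPM to 23.7 and 12.7 CPM, a log2 fold change of 4.58 ± 0.72 (adjusted p = 0.0478). Areg, which encodes amphiregulin, was at 6.65 and 8.26 CPM and then at 27.2 and 18.8 CPM, a log2 fold change of 1.63 ± 0.25 (adjusted p = 0.0410). Nrg1, the neuregulin that binds ErbB3 and ErbB4, was at 2.01 and 3.02 CPM in controls. After laparotomy it stood at 21.4 and 26.4 CPM, a log2 fold change of 3.25 ± 0.36 (adjusted p = 0.0211). Hbegf, the heparin-binding member of the family, went the other way. Its levels were 106 and 79.2 CPM in controls and 22.8 and 21.7 CPM after laparotomy, a log2 fold change of -2.06 ± 0.24 (adjusted p = 0.0225). None of the receptors passed: Egfr was at 22.8 and 13.7 CPM in controls and 10.6 and 14.5 CPM after laparotomy, Erbb2 at 62.5 and 46.9 CPM and then 49.4 and 40.7 CPM, and Erbb3 at 10.1 and 6.98 CPM and then 4.57 and 3.57 CPM, and DESeq2 called none of the 3 either. The remaining tested ligands, Nrg4, Btc and Egf, had no value above 0.906 CPM in the 4 libraries and did not pass.

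Epgn, Ereg and Areg are neighbours on chromosome 5 of the mouse build GRCm38.p6, within the EGF ligand cluster. RefSeq places Epgn at bases 91027517 to 91035212, Ereg at 91074617 to 91093649 and Areg at 91139599 to 91148432. The gaps are 39.4 kb between Epgn and Ereg and 46.0 kb between Ereg and Areg. RefSeq's promoter table of that build held the 250 bases before the start of Epgn (chr5:91027267-91027516, plus strand) and of Areg (chr5:91139349-91139598, plus strand), which are shown because both genes lie in this cluster, on either side of Ereg, and rose. Capitals mark matches to TATAAA, the core of a TATA box, and to TGACGTCA, the full cyclic AMP response element (CRE).
Epgn: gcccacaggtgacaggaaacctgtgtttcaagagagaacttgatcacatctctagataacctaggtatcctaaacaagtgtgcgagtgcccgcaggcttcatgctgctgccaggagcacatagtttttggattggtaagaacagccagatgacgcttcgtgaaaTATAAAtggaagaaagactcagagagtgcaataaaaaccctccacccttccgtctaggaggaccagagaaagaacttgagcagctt
Areg: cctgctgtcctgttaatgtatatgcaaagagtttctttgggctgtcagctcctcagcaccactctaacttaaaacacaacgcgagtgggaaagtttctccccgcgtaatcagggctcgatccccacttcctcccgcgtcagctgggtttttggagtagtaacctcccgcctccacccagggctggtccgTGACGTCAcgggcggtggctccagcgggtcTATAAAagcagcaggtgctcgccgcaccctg
The Areg promoter held the CRE 61 bases and TATAAA 31 bases before the start, while the Epgn promoter held TATAAA 86 bases before it and no full CRE. Over both strands, the CRE was found in 2 of the 34 promoters in the table of genes that rose (5.88%), those of Areg and Has1, in 0 of 20 of genes that fell, and in 2.65% of the 10945 promoters of tested genes. TATAAA was in 4 of 34 (11.8%), 2 of 20 (10%) and 7.06%. The other motifs searched in the same way were at shares given here for higher genes, lower genes and all tested genes in turn. TGANTCA, the AP-1 site, was in 5.88%, 0% and 4.78%, and TCACNCCAC, a sterol response element, in 0%, 5% and 0.968%. GACCACCCA, the GLI site, was in 2.94%, 0% and 0.192%, and GGAATG, the TEAD site, in 11.8%, 10% and 10.8%. TGGAAA, the NFAT core, was in 17.6%, 10% and 15.4%, and CACGTG, the E-box, in 8.82%, 0% and 8.17%. Each of these shares counts letters in a short window and rests on few promoters in the called groups.

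Genes of prostaglandin synthesis rose at 2 successive steps. Of 15 tested genes for prostaglandins and leukotrienes, 3 rose and none fell, where 0.52% of all tested genes were called. The median log2 fold change was 0.40. DESeq2 called the 3 that rose and Alox5ap. Pla2g4a, the cytosolic phospholipase A2 that frees arachidonic acid from membranes, stood at 12.2 and 11.5 CPM in KO controls and 43.4 and 59.4 CPM after laparotomy. Its log2 fold change was 2.12 ± 0.28 (adjusted p = 0.0319). The cyclooxygenase gene Ptgs2 was at 142 and 196 CPM and then at 797 and 1821 CPM, a log2 fold change of 2.95 ± 0.40 (adjusted p = 0.0431). The operated libraries differed from each other more than 2-fold, yet both lay above all 6 other tumour libraries. The other cyclooxygenase gene, Ptgs1, was at 4.75 and 6.08 CPM and then at 51.2 and 77.2 CPM, a log2 fold change of 3.57 ± 0.46 (adjusted p = 0.0322). Ptges, a terminal synthase of prostaglandin E2, was at 89.1 and 65.7 CPM and then 74.3 and 146 CPM and did not pass. Alox5ap, which presents arachidonic acid to 5-lipoxygenase, was at 46.8 and 69.8 CPM and then 133 and 116 CPM (adjusted p = 0.108). Among 6 tested prostanoid receptors, a list added after the data were seen, 1 rose. Ptgir, the prostacyclin receptor, was at 0.304 and 0.264 CPM in controls and 5.98 and 7.35 CPM after laparotomy, a log2 fold change of 4.53 ± 0.48 (adjusted p = 0.0211). Ptgfr, the receptor of prostaglandin F2alpha, was at 9.80 and 9.02 CPM and then 36.0 and 90.7 CPM and missed the threshold (adjusted p = 0.0640), though DESeq2 called it. Pla2g4a and Ptgs2 lie 139 kb apart on chromosome 1, at bases 149829618 to 149961290 and 150100031 to 150108234.

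**Figure D3:**
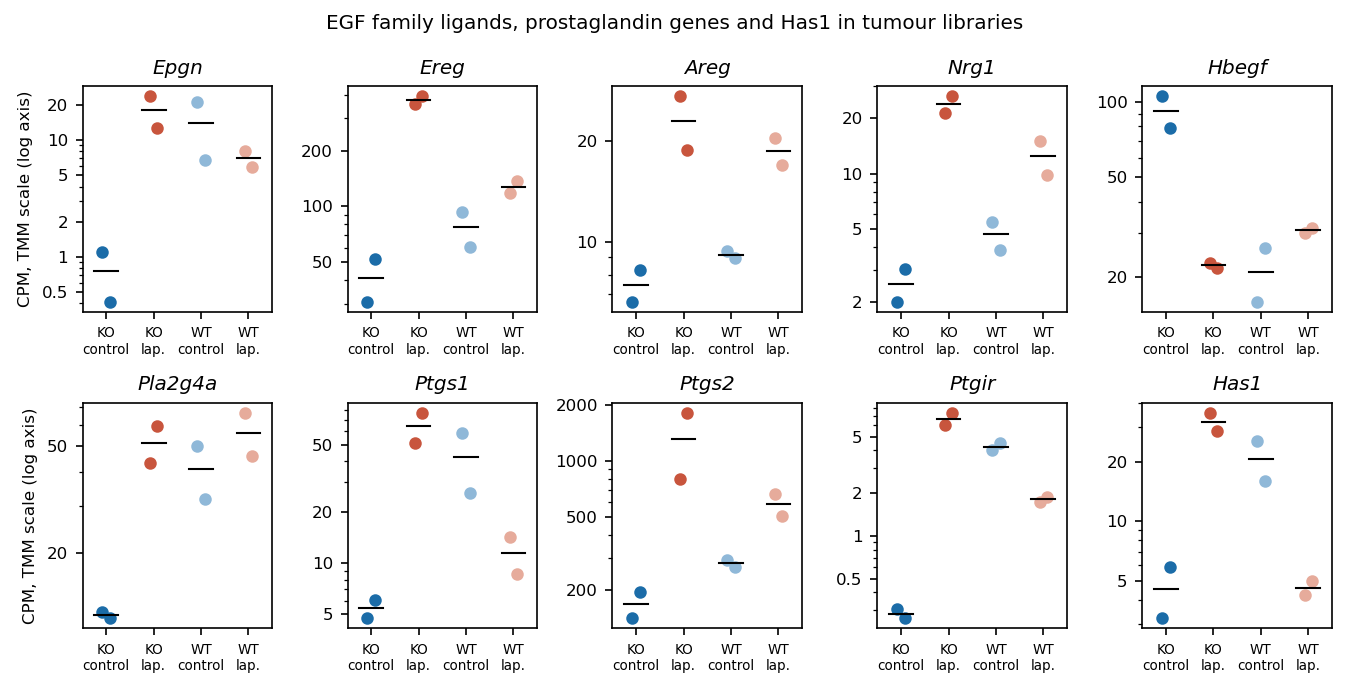
CPM (log axes with separate ranges) of 5 EGF family ligands, 4 prostaglandin genes and Has1 in each tumour library. Points are libraries, 2 per group, and bars are group means. Except for Hbegf, where the order is inverted, both KO laparotomy points lie above both KO control points.

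Among 16 tested ligands and receptors of the IL-1 and IL-6 families, 2 rose and none fell, where 0.52% of all tested genes were called. Of the 16, 13 had a log2 fold change above 0, as did 49.3% of all tested genes, and the median was 0.85. The list was added after the data were seen, and DESeq2 called 6 of its members higher. Il11, which encodes interleukin 11, was at 18.0 and 12.1 CPM in KO controls and 55.4 and 67.0 CPM after laparotomy. Its log2 fold change was 2.02 ± 0.24 (adjusted p = 0.0227), and the WT libraries lay between 17.3 and 24.1 CPM. Il1r1, the signalling receptor of interleukin 1, was at 28.8 and 33.9 CPM and then 67.8 and 90.8 CPM, a log2 fold change of 1.34 ± 0.18 (adjusted p = 0.0319). Osmr, a receptor subunit for oncostatin M, was at 85.9 and 115 CPM and then 237 and 199 CPM (adjusted p = 0.0987). Lif, which encodes leukaemia inhibitory factor, was at 68.5 and 60.3 CPM and then 145 and 343 CPM (adjusted p = 0.138). Neither passed in edgeR, and DESeq2 called both. In the interferon response list, by contrast, 0 of 31 tested genes passed in edgeR and the median log2 fold change was -0.33 (-0.40 in WT hosts). At an unadjusted p below 0.05, 14 were lower and 0 higher, against 7.45% and 8.24% of all tested genes. DESeq2 called 8 of the 31 lower and 0 higher, Gbp2 and Irf1 among them. The members with the smallest p included Gbp2, a guanylate-binding protein, at 198 and 213 CPM in controls and 133 and 91.5 CPM after laparotomy (adjusted p = 0.0913). Irf1, an interferon-induced transcription factor, was at 335 and 300 CPM and then 207 and 213 CPM (adjusted p = 0.0923). The list of major histocompatibility class I presentation likewise held 0 called genes of 13, with a median of -0.24 (-0.44 in WT hosts). At an unadjusted p below 0.05, 5 were lower and 0 higher, and DESeq2 called 3 lower. Epsti1, an interferon-induced gene outside both lists, fell from 64.3 and 49.7 CPM to 14.0 and 16.4 CPM, a log2 fold change of -1.90 ± 0.21 (adjusted p = 0.0211).

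Of the called transcription factors described next, Nfatc4, Mitf and Rarg were picked after their values were seen. Nfatc4, a calcineurin-dependent transcription factor, had the smallest adjusted p of all genes. It stood at 8.62 and 8.60 CPM in KO controls and 46.4 and 48.9 CPM after laparotomy, a log2 fold change of 2.47 ± 0.15 (adjusted p = 0.00212). It passed in 3 of the 4 fits that each left out a KO library, all but the one without KO control 1, and no other called gene passed in more than 2. Rcan1, a calcineurin inhibitor induced by NFAT factors, was at 51.9 and 50 CPM and then 92.8 and 135 CPM (adjusted p = 0.0970), and DESeq2 called it. Gli1, a transcription factor and target of Hedgehog signalling, was at 12.6 and 12.9 CPM and then 71.6 and 54.7 CPM, a log2 fold change of 2.30 ± 0.22 (adjusted p = 0.0162). It was the 1 gene of 9 tested in the Hedgehog list to pass, and Gli2 was at 8.20 and 4.45 CPM and then 12.2 and 17.5 CPM (adjusted p = 0.221). Etv1, a factor of the ETS family, rose from 4.94 and 4.34 CPM to 27.8 and 56.2 CPM, a log2 fold change of 3.18 ± 0.44 (adjusted p = 0.0322). Mitf, known as the regulator of the melanocyte lineage, rose from 5.24 and 9.43 CPM to 45.7 and 32.6 CPM (log2 fold change 2.42 ± 0.34, adjusted p = 0.0322). Rarg, a retinoic acid receptor, rose from 50.1 and 54.8 CPM to 102 and 117 CPM (log2 fold change 1.06 ± 0.13, adjusted p = 0.0234).

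Ankrd1 and Jag1, of the YAP and Notch pathways, were among the genes that fell. Ankrd1, a widely used target of YAP and TEAD, was at 90.1 and 108 CPM in KO controls and 40.6 and 25.2 CPM after laparotomy, a log2 fold change of -1.59 ± 0.22 (adjusted p = 0.0322). It was the 1 called gene of 15 tested in its list, whose median was -0.32 (0.06 in WT hosts). At an unadjusted p below 0.05, 5 were lower and 0 higher, against 7.45% and 8.24% of all tested genes. DESeq2 called Ankrd1 and Axl. Axl, a receptor tyrosine kinase of that list, was at 500 and 353 CPM and then 247 and 258 CPM (adjusted p = 0.0893). Jag1, a Notch ligand, fell from 360 and 236 CPM to 124 and 101 CPM, a log2 fold change of -1.41 ± 0.22 (adjusted p = 0.0473). Notch1 was at 246 and 194 CPM and then 140 and 113 CPM (adjusted p = 0.0824). Hes1, a target of Notch, was at 63.8 and 54.0 CPM and then 34.3 and 33.7 CPM (adjusted p = 0.138). Of the 11 tested genes of the Notch list, 1 fell and 0 rose, where 0.52% of all tested genes were called. The median log2 fold change was -0.79 (-0.70 in WT hosts), the lowest of the added lists. DESeq2 called 4 lower, Notch1 and Hes1 among them. Both lists were added after the data were seen.

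The genes of the cell surface and matrix given here were picked from the 76 and form no counted list. Has1, a hyaluronan synthase, was at 3.23 and 5.89 CPM in KO controls and 35.6 and 28.7 CPM after laparotomy, a log2 fold change of 2.82 ± 0.35 (adjusted p = 0.0263). The matrix proteases Adamts4 and Mmp19 rose, with log2 fold changes of 0.96 ± 0.14 and 1.36 ± 0.19 (adjusted p = 0.0322 for both). Slitrk6, a transmembrane protein of the nervous system, stood at 0.760 and 1.43 CPM and then at 35.8 and 36.2 CPM. Its log2 fold change of 5.03 ± 0.66 (adjusted p = 0.0322) was the largest of a gene meeting the rule for named genes, and it was at 0 CPM in untreated culture. Syt13, a synaptotagmin, rose from 2.39 and 4.42 CPM to 36.6 and 35.1 CPM (log2 fold change 3.39 ± 0.39, adjusted p = 0.0227). Cd9, a tetraspanin, was at 134 and 131 CPM and then 295 and 354 CPM, a log2 fold change of 1.29 ± 0.18 (adjusted p = 0.0322). Gpc1, a glypican, rose from 133 and 122 CPM to 260 and 300 CPM (log2 fold change 1.13 ± 0.16, adjusted p = 0.0322). Ly6a, also called Sca-1, was at 183 and 187 CPM and then 422 and 372 CPM (log2 fold change 1.10 ± 0.16, adjusted p = 0.0322), against 2.21 CPM in untreated culture. Ly6a has close relatives, so its counts are uncertain. Thy1, a surface protein of T cells and fibroblasts, rose from 1.79 and 2.64 CPM to 9.41 and 17.2 CPM (log2 fold change 2.58 ± 0.37, adjusted p = 0.0322) and was at 0 CPM in untreated culture.

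On the lower side, Col8a1 was the 1 called gene among 17 tested collagen chains, whose median was 0.13, and DESeq2 called 4 higher and 2 lower. Col8a1 stood at 35.6 and 28.6 CPM in KO controls and 4.77 and 2.49 CPM after laparotomy, a log2 fold change of -3.14 ± 0.44 (adjusted p = 0.0322). Oaf, a secreted protein, fell from 135 and 70.5 CPM to 18.3 and 13.6 CPM, a log2 fold change of -2.69 ± 0.35 (adjusted p = 0.0322). Islr, also called Meflin and known from mesenchymal cells, fell from 43.1 and 23.6 CPM to 7.39 and 4.38 CPM (log2 fold change -2.50 ± 0.37, adjusted p = 0.0377). Arsi, a sulfatase, fell from 26.7 and 17.5 CPM to 4.71 and 3.51 CPM (log2 fold change -2.42 ± 0.34, adjusted p = 0.0322). Islr and Arsi were near 0 in untreated culture, at 0.283 and 0 CPM. Pdgfrb, a fibroblast and mural marker, stood at 694 and 408 CPM and then 345 and 243 CPM beside them and did not pass (adjusted p = 0.173), though DESeq2 called it lower. St3gal5, which makes the ganglioside GM3, was at 32.3 and 28.1 CPM and then 7.66 and 6.61 CPM, a log2 fold change of -2.08 ± 0.23 (adjusted p = 0.0211). Both operated libraries were below all WT libraries and both controls above them, and none of the other 11 tested ganglioside genes passed. Chst2, a sulfotransferase, fell from 26.3 and 22.9 CPM to 8.67 and 8.56 CPM (log2 fold change -1.51 ± 0.23, adjusted p = 0.0377). Pcdh19, a protocadherin, fell from 112 and 85.2 CPM to 33.7 and 35.7 CPM (log2 fold change -1.51 ± 0.23, adjusted p = 0.0409).

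Of the remaining genes that fell, Chrnb1, a subunit of the muscle acetylcholine receptor, was at 37.1 and 31.5 CPM and then 10.0 and 6.81 CPM (log2 fold change -2.03 ± 0.26, adjusted p = 0.0303). Fam160a1 fell from 55.8 and 36.9 CPM to 16.1 and 15.5 CPM (log2 fold change -1.55 ± 0.22, adjusted p = 0.0322). The most abundant of the lower genes were Jag1, Filip1l, Mllt4, Fnbp1l, Prl2c2 and Gng11. Filip1l was at 311 and 231 CPM in KO controls and 103 and 121 CPM after laparotomy. Mllt4, the afadin of cell junctions, was at 189 and 164 CPM and then 108 and 107 CPM, and Fnbp1l, a membrane-bending actin regulator, at 171 and 166 CPM and then 88.1 and 71.9 CPM. Prl2c2, a proliferin with near-identical copies in the genome that make its count uncertain, was at 104 and 113 CPM and then 58.9 and 49.2 CPM. Gng11, a G protein subunit, was at 110 and 86.2 CPM and then 38.6 and 48.5 CPM. Log2 fold changes of these last 5 lay between -1.27 and -0.71. Plac1, a gene of placenta and some tumours, was at 7.94 and 5.13 CPM and then 0.202 and 0 CPM.

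Cholesterol synthesis genes lay mostly above 0, by small amounts. Of 25 tested genes of cholesterol synthesis, 1 rose and none fell, and the median log2 fold change was 0.46 (0.17 in WT hosts). Of the 25, 24 lay above 0, against 49.3% of all tested genes. At an unadjusted p below 0.05, 15 were higher and 0 lower, against 8.24% and 7.45% of all tested genes. DESeq2 called 12 higher and 0 lower. Mvd, the mevalonate diphosphate decarboxylase, was at 16.6 and 21.6 CPM in KO controls and 39.9 and 44.0 CPM after laparotomy, a log2 fold change of 1.13 ± 0.17 (adjusted p = 0.0377). Sqle, the squalene epoxidase, was at 102 and 105 CPM and then 171 and 166 CPM (adjusted p = 0.0559). Fdps, which makes farnesyl diphosphate, was at 158 and 144 CPM and then 220 and 223 CPM (adjusted p = 0.0683). The groups did not overlap for 21 of the 25, where they did not overlap for 42.1% of all tested genes. Of 19 tested genes of fatty acid synthesis, 1 rose, with a median of 0.28, and DESeq2 called 4 higher. Hsd17b12, which acts in elongation of long fatty acids, was at 154 and 161 CPM and then 257 and 283 CPM, a log2 fold change of 0.77 ± 0.11 (adjusted p = 0.0340). Scd1, the stearoyl-CoA desaturase, was at 132 and 146 CPM and then 232 and 205 CPM (adjusted p = 0.0554). Phyh, a peroxisomal enzyme of branched fatty acid breakdown, rose from 1.10 and 1.28 CPM to 13.9 and 11.6 CPM (log2 fold change 3.41 ± 0.42, adjusted p = 0.0263). Lipg, the endothelial lipase, rose from 40.4 and 36.0 CPM to 93.6 and 147 CPM (log2 fold change 1.66 ± 0.26, adjusted p = 0.0476). Pcx, the pyruvate carboxylase, was at 17.9 and 19.4 CPM and then 38.4 and 41.2 CPM (log2 fold change 1.09 ± 0.14, adjusted p = 0.0263). In 23 tested genes of fatty acid oxidation none passed in edgeR or DESeq2, 1 was higher and 2 were lower at an unadjusted p below 0.05, and the median was -0.03.

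**Figure D4:**
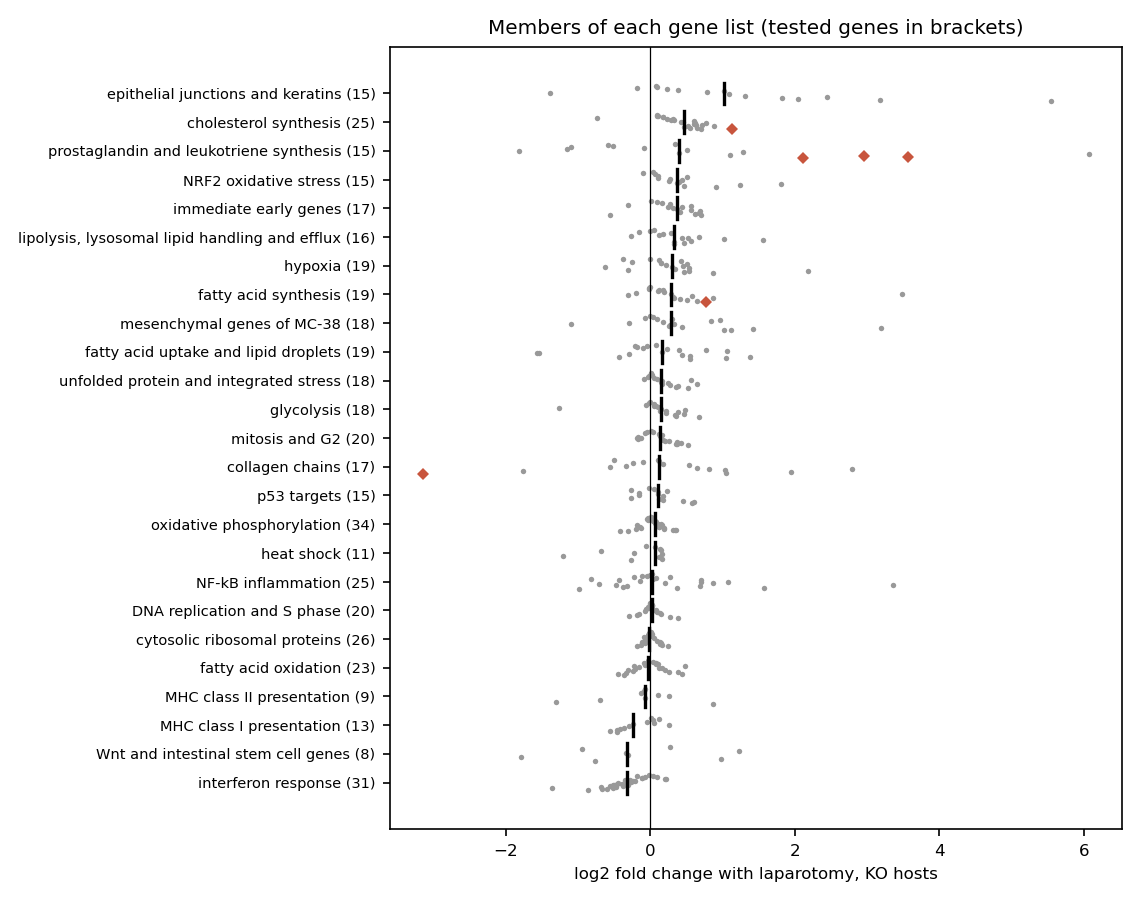
Log2 fold change of KO laparotomy over KO control for every tested gene of the lists other than markers and added lists. Diamonds are genes past the threshold, grey points genes that were not, and black bars list medians. Cholesterol synthesis genes lie mostly above 0 and interferon response genes mostly below it, with 1 and 0 genes past the threshold.

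No called gene in edgeR was in the lists of hypoxia, class II presentation, NF-kB inflammation, unfolded protein stress, NRF2, heat shock, immediate early genes, replication, mitosis, p53 and ribosomal proteins. Hypoxia genes had 7 higher and 2 lower members of 19 at an unadjusted p below 0.05, and NRF2 genes 6 higher and 0 lower of 15. Replication genes had 1 and 0 of 20, and mitosis genes 3 and 0 of 20. Of all tested genes, 8.24% were higher and 7.45% lower at that unadjusted p. A count near these shares is no result about its list. Glycolysis and oxidative phosphorylation also held no gene called in edgeR, with medians of 0.15 and 0.07. Nor did fatty acid uptake, lipolysis, the Wnt and stem cell list and the mesenchymal genes of MC-38. DESeq2 called 4 hypoxia genes higher, 3 NF-kB genes higher and 1 lower, 3 immediate early genes higher and 1 lower, and 2 NRF2 genes and 3 mesenchymal genes higher. It called 1 gene higher in each of glycolysis, unfolded protein stress, mitosis and fatty acid uptake, and none in the others. Epithelial junction and keratin genes had a median of 1.02 over 15 tested genes, none called in edgeR and Krt8 higher in DESeq2, and the highest value of any of them in the KO libraries was 10.3 CPM.

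Other genes that rose are known for varied roles. Olfr810, an olfactory receptor gene, was at 4.56 and 3.21 CPM in KO controls and 29.9 and 31.1 CPM after laparotomy, a log2 fold change of 2.97 ± 0.25 (adjusted p = 0.0160). Olfactory receptors form a large gene family, and reads of its relatives may be counted with it. Fetub, a fetuin, rose from 0.760 and 1.36 CPM to 10.3 and 9.24 CPM (log2 fold change 3.20 ± 0.46, adjusted p = 0.0340). Fmn1, a formin that builds actin filaments, was at 18.3 and 17.6 CPM and then 54.0 and 108 CPM (log2 fold change 2.18 ± 0.29, adjusted p = 0.0322). Mfap3l rose from 7.33 and 6.83 CPM to 22.8 and 25.2 CPM (log2 fold change 1.76 ± 0.19, adjusted p = 0.0211). Dram1, a lysosomal membrane protein of autophagy, was at 24.7 and 34.3 CPM and then 93.3 and 101 CPM (log2 fold change 1.72 ± 0.16, adjusted p = 0.0162). Rnf11, a ubiquitin ligase, was at 141 and 146 CPM and then 280 and 385 CPM (log2 fold change 1.21 ± 0.19, adjusted p = 0.0426). Slc11a2, the iron transporter DMT1, rose from 57.4 and 54.9 CPM to 86.9 and 86.7 CPM, and its log2 fold change of 0.63 ± 0.10 (adjusted p = 0.0473) was the smallest among the higher genes.

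The change was then set beside that of WT hosts. In WT hosts, the same operation gave 8 genes past the threshold, 0.0547% of those tested, and none of them was among the 76. The direction in WT hosts was the same for 21 of the 76 genes (27.6%, against 46.5% of all tested genes). List medians had the same sign in WT hosts for interferon response (-0.40), class I presentation (-0.44), Notch (-0.70) and cholesterol synthesis (0.17). Members with the same direction in both hosts were 26 of 31, 7 of 13, 8 of 11 and 20 of 25, in turn. Other lists had the opposite sign there, among them prostaglandin and leukotriene synthesis (-1.73), the IL-1 and IL-6 families (-0.52) and the YAP list (0.06). A direct test of the difference between the 2 laparotomy effects passed for 99 of all tested genes (0.677%) and for 43 of the 76, of which 28 were higher and 15 lower in KO hosts. That difference contains the KO effect by which the 76 were chosen, so a raised share among them is built in and is no test. For Ankrd1 the effects were opposite, with a log2 fold change of -1.59 in KO hosts and 1.87 in WT hosts, and their difference was -3.46 ± 0.32 (SE, adjusted p = 0.0123). For Has1 the WT libraries were at 25.6 and 16.1 CPM without and 4.23 and 4.98 CPM with laparotomy, and the difference of effects was 4.99 ± 0.49 (adjusted p = 0.0134). For Hbegf the WT levels were 15.9 and 26.0 CPM without and 29.9 and 31.4 CPM with laparotomy, and the difference was -2.59 ± 0.33 (adjusted p = 0.0210). For Ptgs1 it was 5.45 ± 0.63 (adjusted p = 0.0210), with WT levels of 58.6 and 26.1 CPM and then 14.3 and 8.60 CPM. Ptgs2, Nrg1, Areg and Syt13 rose in KO hosts and had positive fold changes in WT hosts as well. The difference of effects did not pass for these 4, with adjusted p of 0.140, 0.113, 0.381 and 0.239. The number of genes in this test depended on single libraries too, from 0 without WT laparotomy 2 to 344 without WT control 1.

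**Figure D5:**
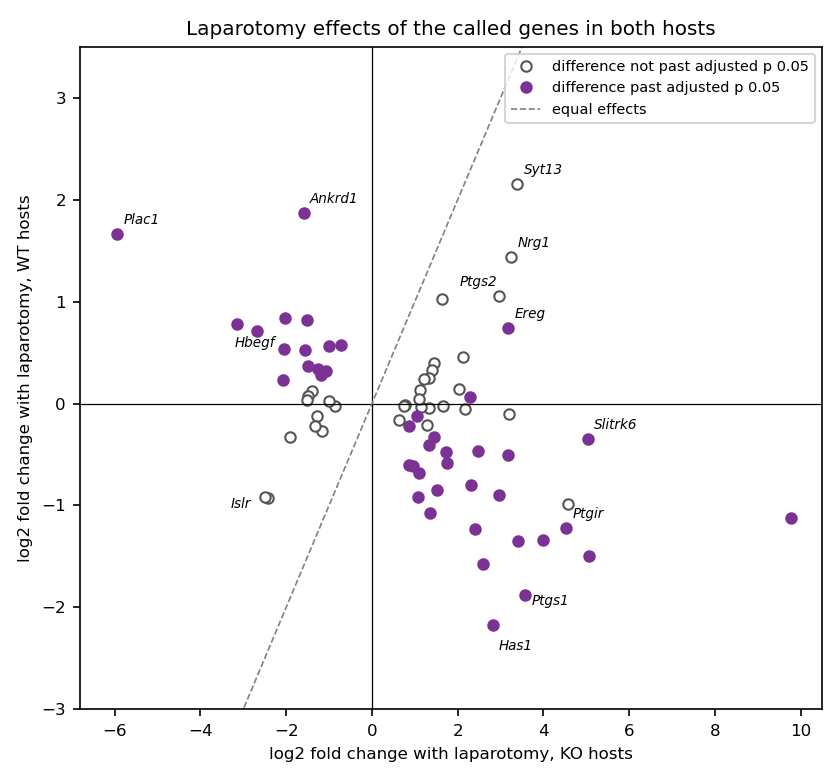
Log2 fold change with laparotomy in KO hosts (x axis) against that in WT hosts (y axis), one point per gene called in KO hosts. Filled points passed the test of the difference between the 2 effects, open points did not, and the dashed line marks equal effects. Ankrd1 lies at -1.59 and 1.87, and Ereg, Nrg1 and Ptgs2 lie above 0 on both axes. The gene at the far right had no counts in either KO control, so its fitted value is no measure of size.

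Most called genes had KO controls that stood apart from the WT libraries. For 66 of the 76 genes (86.8%, against 24.1% of all tested genes), both KO control libraries lay outside the range of the 4 WT libraries. Both KO laparotomy libraries lay outside that range for 41 (53.9%, against 14.6%), and the KO groups lay on opposite sides of it for 32 (42.1%, against 1.66%). The 76 genes were chosen for a difference between these KO groups, so the shares describe them and are no test. Gli1 is one case, with 12.6 and 12.9 CPM in KO controls, 34.5 to 76.5 CPM in the 4 WT libraries and 71.6 and 54.7 CPM after laparotomy in KO hosts. Hbegf is another, with 106 and 79.2 CPM in KO controls against 15.9 to 31.4 CPM in WT hosts and 22.8 and 21.7 CPM in operated KO hosts. Il11 and Lipg showed the other arrangement, with KO controls close to or within the WT range and operated KO hosts above it. Lipg was at 28.8 to 40.3 CPM in the WT libraries.

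Called genes were found among genes that cultured MC-38 cells express and among those they do not. At 10 CPM or more in each of the 3 untreated cultures were 9075 tested genes, of which 26 rose and 19 fell. Below 0.1 CPM in each were 1046 genes, of which 5 rose and 1 fell, and the 4494 genes in between held 19 and 6. These shares, 0.496%, 0.574% and 0.556%, were close to the 0.52% of all tested genes. These classes do not show which cells the RNA came from. The 26 and 19 rested on single libraries as the totals did, falling to 0 and 0 without KO control 1 or without KO laparotomy 2. In culture, 59 of the 76 were tested against chromatin of extracellular traps, and 14 were higher and 22 lower with it, where 54.1% of all genes tested there differed. Of the 37 genes that rose in KO hosts and were tested there, 6 were higher and 13 lower, and of the 22 that fell, 8 were higher and 9 lower. Ereg, Areg and Ptgs2 were higher in culture, with log2 fold changes of 0.83, 0.87 and 0.70 (adjusted p = 0.000385, 0.00029 and 1.32e-07). Ly6a, Mfap3l and Mitf were lower there, at -2.20, -1.01 and -0.72 (adjusted p = 3.58e-05, 2.79e-06 and 0.00223).

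Some called genes lay within 500 kb of another called gene. At that distance there were 11 pairs made of 17 genes, and 10 pairs moved in 1 direction. Pairs were not counted among all tested genes, so these numbers do not show that called genes cluster. With 50 of the 76 called genes higher, many pairs would share a direction at any distance. The EGF ligand cluster alone gave several of the pairs. Besides the EGF ligand cluster and the pair of Ptgs2 and Pla2g4a, these were C1ra with Clstn3 (47.8 kb apart), and Pianp with C1ra and with Cd9, all higher, on chromosome 6. Gli1 and Ndufa4l2 lie 168 kb apart on chromosome 10, and Igfbp6 and Rarg 85.4 kb apart on chromosome 15, all higher. Filip1l and Col8a1, both lower, lie 51.5 kb apart on chromosome 16. C1ra, a protease of the complement pathway, was at 27.0 and 28.8 CPM in KO controls and 69.8 and 89.3 CPM after laparotomy. Clstn3, a calsyntenin, was at 18.0 and 17.1 CPM and then 47.9 and 44.6 CPM, and Igfbp6, which binds insulin-like growth factors, at 79.1 and 69.4 CPM and then 163 and 149 CPM. The pair that moved in opposite directions was Plac1 and a protein-coding gene with only a clone-based symbol, 485 kb away on the X chromosome.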

How the data were processed

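RNA sequencing libraries of 14 samples were used, 4 of them in the comparison described. The deposited tables hold whole-number read counts per gene symbol, unstranded and for each strand. The submitters' processing notes list Trimmomatic, STAR and the mouse build mm10, without versions. Gene annotation, options and kit: not given in the sources used here. Library sizes and tests exclude the 4 summary lines that name no gene. In the 4 KO libraries, unmapped reads, multimapping reads and reads in no gene were 4 to 6.41%, 6.16 to 7.25% and 12.1 to 15.3% of all reads.

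The test of counts used edgeR 4.0.16 under R 4.3.3 (filterByExpr, trimmed mean of M values, robust quasi-likelihood fit) over the 8 tumour libraries in 4 groups, with 4 residual degrees of freedom and a common biological coefficient of variation of 0.278. Benjamini-Hochberg adjustment covered all genes tested, with a threshold of 0.05. Log2 fold changes are operated minus unoperated, and 2 against 2 libraries allow no exact permutation p below 0.333. Alternatives were DESeq2 1.42.0, other scaling, no filter, a strand-specific column, a replicate block, the KO libraries alone and leaving out each library. Replicate numbers were not treated as pairs.

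The genes in the comparison and all gene lists were chosen with earlier results of these data known, and 10 lists were added after the values were seen. Named genes were the 12 largest fold changes per direction among called genes of at least 5 CPM without overlap, the 6 most abundant called genes per direction, the 6 largest fold changes per direction among genes at 10 CPM or more in culture, and the 3 members of each list with the smallest p. Predicted genes were left out. Called genes named outside that rule, after their values were seen, are Areg, Ptgir, Pianp, Thy1, Nfatc4, Mitf, Il11, Dram1, Lipg, C1ra, Clstn3, Mmp19, Il1r1, Ndufa4l2, Gpc1, Pcx, Igfbp6, Rarg, Adamts4, Slc11a2 and Plac1. Members of added lists and Alox5ap, Ptges, Epcam and Krt19 were named in the same way. Gene positions and promoters are from RefSeq on GRCm38.p6. Promoters were in the table for 54 of the 76 called genes. The main test used the unstranded column, which does not tell antisense reads from sense ones. Ambiguous reads, 1.38 to 1.51% in the KO libraries, stood in a summary line and were counted for no gene. The column of the better-covered strand was also tried.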

Additional observations from a re-analysis of the deposited data

Results flagged for a closer look

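The laparotomy effect in KO hosts differed from that in WT hosts, by edgeR's test of the difference itself, for 34 of the genes named above. All were called for their KO effect, which is part of that difference, so their number is raised by the choice. Each value that follows is the log2 fold change in KO hosts minus that in WT hosts, with 2 libraries in each of the 4 groups. Among genes that rose in KO hosts, the difference was 5.75 for Ptgir, 5.45 for Ptgs1, 5.38 for Slitrk6, 5.34 for Pianp, 4.99 for Has1, 4.76 for Phyh and 4.16 for Thy1. It was 3.87 for Olfr810, 3.68 for Etv1, 3.65 for Mitf, 3.11 for Gli1, 2.93 for Nfatc4, 2.44 for Ereg and 2.44 for Mmp19. The smaller positive differences were 2.36 for C1ra, 2.35 for Mfap3l, 2.20 for Dram1, 1.99 for Igfbp6, 1.79 for Ly6a, 1.75 for Ndufa4l2, 1.58 for Adamts4 and 1.19 for Rarg. Among genes that fell in KO hosts, the difference was -3.93 for Col8a1, -3.46 for Ankrd1, -3.40 for Oaf, -2.86 for Chrnb1, -2.59 for Hbegf and -2.32 for Pcdh19. The fitted difference for Plac1 was -7.60, which rests on few counts after laparotomy in KO hosts and is no measure of size. The remaining differences were -2.31 for St3gal5, -2.08 for Fam160a1, -1.57 for Prl2c2, -1.39 for Fnbp1l and -1.28 for Mllt4. In the 4 KO libraries of these genes the groups did not overlap. That was so for all 76 called genes and for 42.1% of all tested genes, so it adds nothing to the call. The 2 effects compare different libraries but come from 1 fit over all 8, so they share the spread, the scaling and the genes tested. With all libraries, 99 genes were past the threshold, and this number depended on single libraries, as described above.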

How the results depend on the processing

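All 76 called genes kept their direction under every alternative. RLE scaling, library totals and the strand-specific column kept every count within 1.5 times. Without a filter there were 152 higher and 126 lower genes and 399 with a difference between hosts, and 94 higher and 96 lower among genes expressed in culture. DESeq2 gave 436, 337, 1119, 249 and 236 for the same counts. The replicate block gave 20, 3, 10, 9 and 2, and 16 of the 76 genes passed with it. Same-numbered KO libraries had a correlation of deviations of -0.122 and WT libraries of 0.0537, so the numbers are not treated as pairs. Crossing the KO numbers, an alternative added after seeing the data, gave 61 higher and 22 lower genes. The 4 KO libraries alone gave 36 higher and 18 lower genes, 41 of them shared, with 15 and 11 among genes expressed in culture. A limit of 20 CPM in culture left 11 lower genes in that class. Leaving out 1 library gave 0 to 106 higher genes, 0 to 98 lower genes, 0 to 344 with a difference between hosts, and 0 to 60 higher and 0 to 59 lower among genes expressed in culture. Of the genes named, Padi4 had a log2 fold change of -0.15 that ranged from -0.69 without KO control 2 to 0.71 without KO control 1, and was 0.06 without KO laparotomy 2. Ptges ranged from -0.076 without KO laparotomy 2 to 0.91 without KO laparotomy 1, and neither gene passed in any of these fits. The causes were not tested. In fits that leave a group with 1 library, that library is assumed to vary like the others.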

Other observations

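Single libraries set some of the largest values among genes that did not pass. Col12a1, a collagen of tendon and scar tissue, was at 130 and 87.1 CPM in KO controls and at 105 and 1393 CPM after laparotomy, so that only KO laparotomy 2 was high. Lum, which encodes the matrix protein lumican, was at 191 and 125 CPM and then 77.1 and 726 CPM. Col3a1 was at 5162 and 2792 CPM and then 3482 and 8078 CPM.

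Fold changes of genes expressed in culture also varied by chromosome. The median log2 fold change was 0.175 over 347 genes of chromosome 15, of which 272 were above 0, and -0.163 over 452 genes of chromosome 17, of which 120 were above 0. Chromosome 15 held 5 higher genes and no lower gene of this class, in which 26 of 9075 genes rose and 19 fell. Chromosome 1 also held 5 higher genes, and 1 lower, with a median of 0.007 over 518 genes. Between the 2 operated libraries themselves, KO laparotomy 2 minus 1, the chromosome medians were 0.208 for chromosome 1, 0.215 for chromosome 4, 0.207 for chromosome 13 and -0.185 for chromosome 17. Between the unoperated ones, KO control 2 minus 1, the largest were -0.198 for chromosome 6 and -0.149 for chromosome 11. Genes of a chromosome are not independent, and no test was made.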
